A study of Mus musculus with 6 samples.

Results

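The Teashirt zinc finger family comprises Tshz1, Tshz2 and Tshz3, which were taken by their Entrez gene IDs from counts of 27179 gene records in mouse neural stem cells. All 3 genes passed the filter on low counts, among 14207 genes tested. The null group held 3 libraries from cells with the genotype Smchd1MommeD1/MommeD1, labelled Smchd1 null, in which both copies carry the nonsense allele MommeD1, and the wild type group held 3 libraries from Smchd1 wild-type cells. Both groups came from brains of male embryos of the strain C57BL/6 x FVB/N at stage E14.5, and were cultured with EGF and bFGF at 20 ng/ml each. The Smchd1 protein, a noncanonical relative of the SMC chromosome proteins, takes part in gene silencing, and the comparison addressed which genes respond to its loss. The labels do not say whether the libraries of a group came from separate embryos, so the spread between them may be technical. The family was chosen by the counts of these same libraries, null against wild type, so the values of the 3 genes in that contrast are a description and carry no test.

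The family takes its name from the Drosophila gene teashirt, which encodes a zinc finger protein that specifies the trunk of the embryo and acts with Wingless signalling. The mouse genes encode nuclear proteins with widely spaced zinc fingers and a homeodomain, which act mainly as transcriptional repressors together with CtBP corepressors and histone deacetylases. In the mouse forebrain, Tshz1 is known from the dorsal lateral ganglionic eminence and the olfactory bulb interneurons that arise there, and Tshz3 from cortical and striatal neurons. Tshz2 is known from subsets of cortical neurons.

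Sequenced libraries held 18608881, 18848785 and 19137666 counts for null replicates 1, 2 and 3, and 23253367, 20498667 and 19504879 counts for wild type replicates 1, 2 and 3. Wild type replicate 3 stood apart. A single record held 44.6% of all its reads counted, while the largest record of each other library held 2.11% to 5.90%, and its effective depth after scaling was 10.1 M counts, against 21.3 to 25.8 M. Smchd1 matched the labels, with 27.9 to 31.1 CPM (counts per M counts of library size, after TMM scaling) in null and 231.8 to 270.7 CPM in wild type. Fold changes and family shares of the Tshz genes and calls in the gene lists are given with and without wild type replicate 3.

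In the GRCm38.p6 assembly (mm10 chromosomes), Tshz2 lies on chromosome 2 (169632509 to 170072751) and Tshz3 on chromosome 7 (36698118 to 36773553). The 3 genes share a structure in which a smaller first exon is followed, after a long intron, by a large last exon. In GENCODE M21 that exon makes up 4615 of 5656 bases in the longest Tshz1 transcript, 4979 of 5083 in the longest Tshz2 transcript and 4926 of 5098 in the longest Tshz3 transcript. The gene lengths deposited beside the counts were 5814, 5113 and 5002 bases for Tshz1, Tshz2 and Tshz3. Tshz2 spans 440243 bases, against 76082 for Tshz1 and 75436 for Tshz3, and GENCODE gives it 5 transcripts. Some of these transcripts start inside the gene or end in exons further downstream, so a single count per gene could not separate them.

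RefSeq promoter windows (GRCm38.p6, 250 bases before to 50 after the annotated start, plus strand) are shown for Tshz2 and Tshz3, and none for Tshz1, to set their base composition side by side. Capitals mark the dinucleotide CG, which reads the same on both strands. The window of Tshz2 is chr2:169632259-169632558 and that of Tshz3 is chr7:36697868-36698167.
Tshz2: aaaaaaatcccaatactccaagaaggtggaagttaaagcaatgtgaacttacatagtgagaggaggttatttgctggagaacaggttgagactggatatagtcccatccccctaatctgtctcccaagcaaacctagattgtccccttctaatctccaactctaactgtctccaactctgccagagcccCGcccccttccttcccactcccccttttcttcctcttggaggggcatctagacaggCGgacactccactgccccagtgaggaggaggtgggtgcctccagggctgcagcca
Tshz3: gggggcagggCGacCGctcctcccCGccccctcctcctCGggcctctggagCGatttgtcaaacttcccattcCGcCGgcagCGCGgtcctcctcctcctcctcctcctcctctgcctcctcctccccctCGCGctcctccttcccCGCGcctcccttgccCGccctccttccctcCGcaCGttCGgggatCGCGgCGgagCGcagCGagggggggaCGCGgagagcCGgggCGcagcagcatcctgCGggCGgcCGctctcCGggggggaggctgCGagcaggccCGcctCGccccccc
The Tshz2 window held 2 CG and was 52.0% G or C, while the Tshz3 window held 33 CG and was 76.0% G or C. Of 32851 RefSeq promoter windows of the same length, 94.6% held at least 1 CG and the median was 7. At least as many as in Tshz2 were found in 85.9% of windows, and at least as many as in Tshz3 in 8.56%. The first Tshz2 start in GENCODE lies 504 bases downstream of the RefSeq start used here, so the shown window need not be the one in use in these cells. The Tshz3 starts coincide in both annotations.

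Per gene length, Tshz1 was the highest and Tshz3 the lowest member in every library (plot of levels per gene length). On this scale, CPM per kilobase of gene length, Tshz1 stood at 8.25, 7.79 and 8.12 in null replicates 1, 2 and 3, and at 9.09, 8.06 and 8.52 in wild type replicates 1, 2 and 3. Tshz2 stood at 3.27, 3.37 and 3.07 in null and at 5.32, 4.94 and 4.37 in wild type. Tshz3 stood at 0.874, 0.862 and 0.544 in null and at 0.573, 0.341 and 0.436 in wild type. The ranges of the 3 genes over all 6 libraries did not overlap, so no neighbours in this order lay within each other's spread. Averaged over the 6 libraries, Tshz1 lay at percentile 51.1 of the tested genes by level per length, Tshz2 at 35.1 and Tshz3 at 10.7.

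**Figure D1:**
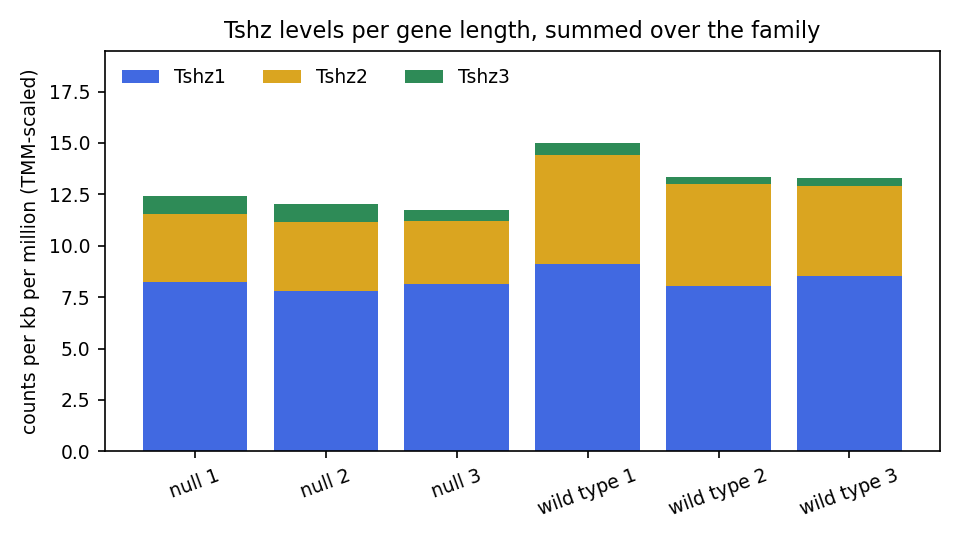
Stacked bars show the level of each Tshz gene per gene length (TMM-scaled CPM per kilobase) in each library, null libraries left and wild type libraries right. The family sum lay between 11.7 and 12.4 in null and between 13.3 and 15.0 in wild type, and the Tshz2 block is smaller in each null library than in each wild type library.

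The make-up of the family is given as a description, since the counts of these libraries chose the family. Tshz1 made up 66.9% ± 2.2 of the family sum in null and 61.7% ± 2.0 in wild type (mean ± SD, n = 3 each). Tshz2 made up 26.9% ± 1.0 in null and 35.1% ± 2.1 in wild type. Tshz3 made up 6.28% ± 1.43 in null and 3.2% ± 0.6 in wild type. The ranges of the groups did not overlap for any of these shares. Shares of 1 sum are not independent of each other, so a lower Tshz2 level by itself raises the shares of Tshz1 and Tshz3. In CPM the groups overlapped for Tshz1 and Tshz3 and not for Tshz2, and they did not overlap for 22.0% of all tested genes. Without wild type replicate 3 the wild type shares were 60.5% for Tshz1, 36.3% for Tshz2 and 3.19% for Tshz3. Within a library, the level of Tshz1 was 2.31 to 2.65 times that of Tshz2 in null and 1.63 to 1.95 times in wild type, or 1.63 to 1.71 times without wild type replicate 3.

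Tshz2 was the member that was lower in null without overlap of the groups. Its counts were 356, 368 and 352 in null replicates 1, 2 and 3, and 702, 592 and 225 in wild type replicates 1, 2 and 3, the last from the library with the smallest effective depth. After scaling these were 16.7, 17.2 and 15.7 CPM in null and 27.2, 25.2 and 22.3 CPM in wild type. Every null library lay below every wild type library, and 5.08 CPM separated the highest null library from the lowest wild type library. The 95% Poisson intervals, which cover counting error only, reached up to 19.1 CPM at most in null and down to 19.5 CPM at least in wild type. The mean was 16.6 ± 0.8 CPM in null and 24.9 ± 2.5 CPM in wild type (mean ± SD, n = 3 each), a log2 fold change of -0.60 ± 0.10 (SE), so that the fitted level in null was 0.661 times that in wild type.

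Tshz3 had the fewest counts of the family and was higher in null on average. Its counts were 93, 92 and 61 in null replicates 1, 2 and 3, and 74, 40 and 22 in wild type replicates 1, 2 and 3. On the CPM scale null replicates 1 and 2 stood at 4.37 and 4.31, above all other libraries, while null replicate 3 stood at 2.72, below wild type replicate 1 at 2.87. Wild type replicates 2 and 3 stood at 1.71 and 2.18 CPM, so the groups overlapped through 1 library of each. The mean was 3.8 ± 0.9 CPM in null and 2.25 ± 0.58 CPM in wild type (SD, n = 3 each), a log2 fold change of 0.74 ± 0.27 (SE). With 22 counts, wild type replicate 3 had a 95% Poisson interval of 1.37 to 3.31 CPM, which held the values of wild type replicate 1 and null replicate 3. A predicted coding gene that is not among the counted records, Gm36722, shares 105 bases with the start of Tshz3, and the library kit does not mark strand.

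Tshz1 differed least between the groups. The gene lies on chromosome 18 (84011627 to 84087708). It had 1021, 967 and 1059 counts in null replicates 1, 2 and 3, and 1364, 1099 and 499 counts in wild type replicates 1, 2 and 3. These were 48.0, 45.3 and 47.2 CPM in null and 52.9, 46.9 and 49.5 CPM in wild type. The groups overlapped, since wild type replicate 2 lay below null replicates 1 and 3. The mean was 46.8 ± 1.4 CPM in null and 49.7 ± 3.0 CPM in wild type (SD, n = 3 each), a log2 fold change of -0.09 ± 0.07 (SE).

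**Figure D2:**
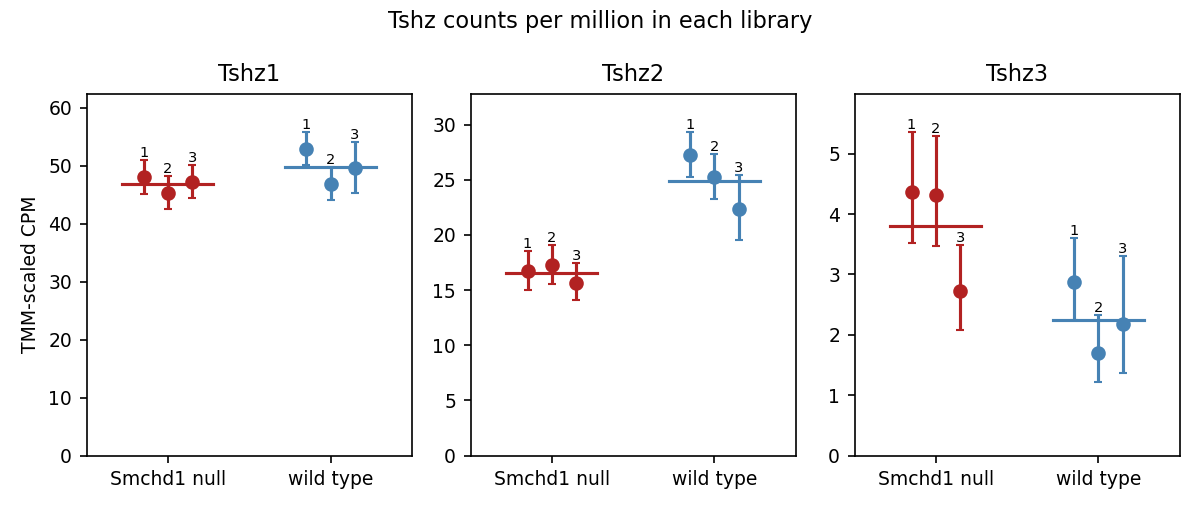
Points show TMM-scaled CPM in each library, numbered by replicate, with 95% Poisson intervals for counting error, and horizontal lines show group means. The null libraries of Tshz2 lie between 15.7 and 17.2 CPM, below wild type libraries at 22.3 to 27.2 CPM, while the groups of Tshz1 and Tshz3 overlap.

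Of the 3 members, 1 (Tshz2, lower in null) was in the set of genes called at an adjusted p under 0.05 by edgeR's quasi-likelihood test, a set that held 0.577% of all tested genes, 0.507% higher (72 genes) and 0.0704% lower (10 genes) in null. The same member was the 1 of 3 whose groups did not overlap in CPM, as did 22.0% of all tested genes, 10.6% lower and 11.4% higher in null. Because these values chose the family, nothing is read from these counts. In the sample names, the null libraries and wild type replicate 3 are numbered 11 to 14, and wild type replicates 1 and 2 carry numbers of another range. Tshz2 was in the called set under 8 of 16 other settings, not with the replicate block, the name-range term, the libraries named 11 to 14, or without any 1 library other than wild type replicate 3. Tshz3 was in it under 2 of 16, with quality weights and without wild type replicate 3. These settings called 36.4% and 39.2% of all tested genes, and both were among the 8 for Tshz2. Within the range 11 to 14 the log2 fold change was -0.43 for Tshz2, 0.79 for Tshz3 and -0.08 for Tshz1, against 1 wild type library. Without wild type replicate 3 it was -0.67 for Tshz2, 0.71 for Tshz3 and -0.09 for Tshz1. All null libraries then lie in the range 11 to 14 and all wild type libraries in the other range. Genotype and name range cannot be told apart in that setting. The same limit holds for the family shares and the gene list calls given without wild type replicate 3. Under 16 other settings of the analysis, the log2 fold change of Tshz2 ran from -0.67 to -0.43, that of Tshz3 from 0.54 to 1.00 and that of Tshz1 from -0.13 to -0.04.

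**Figure D3:**
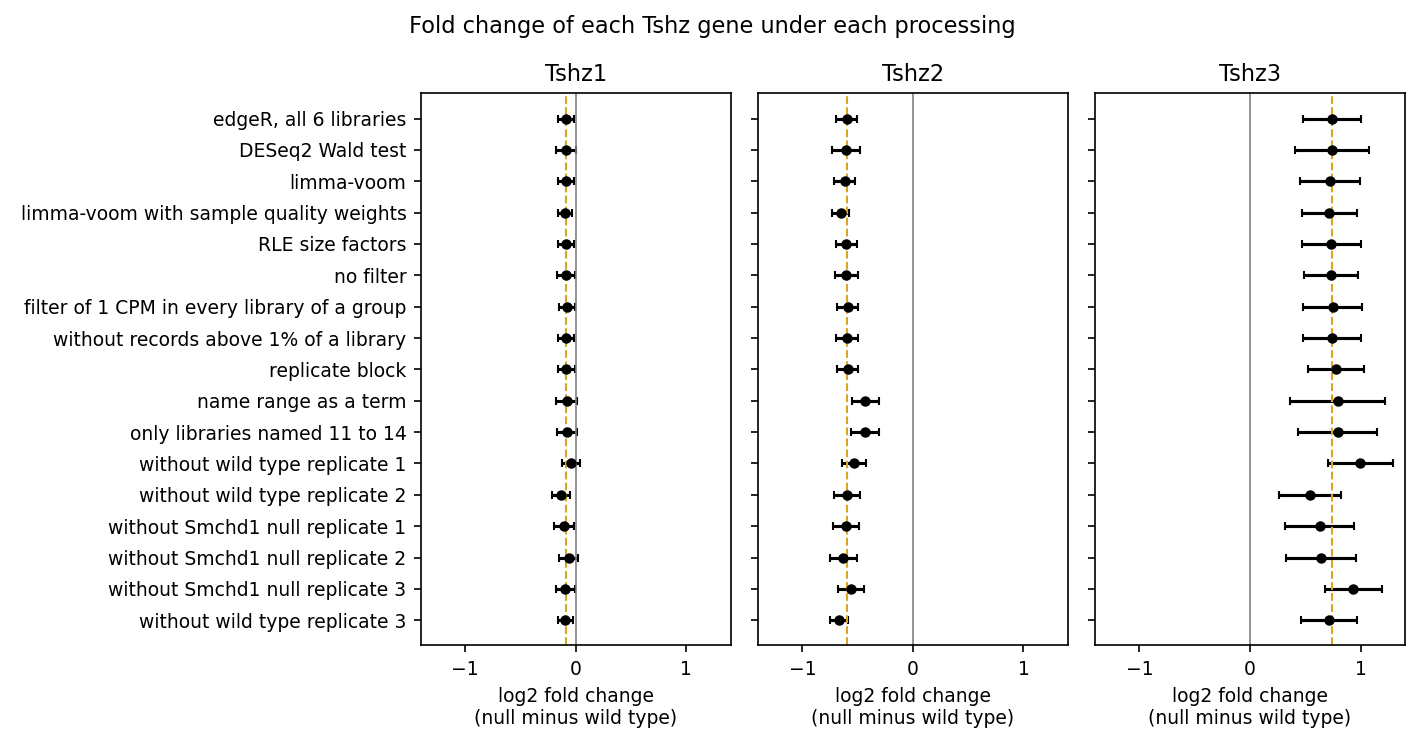
Points show the log2 fold change (null minus wild type) of each Tshz gene under the analysis reported and 16 other settings, with SE, and the dashed line marks the reported value. Tshz2 stays left of 0 and Tshz3 right of 0 in every setting shown, and the Tshz1 values lie between -0.13 and -0.04.

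The spread among libraries of a group was set beside that from counting error, as a description over 3 libraries. The coefficient of variation of CPM was 2.93% in null and 6.05% in wild type for Tshz1, where counting error alone would give 3.14% and 3.49%. For Tshz2 it was 4.77% in null and 9.86% in wild type, against 5.28% and 5.02% from counting. For Tshz3 it was 24.6% in null and 25.9% in wild type, against 11.3% and 16.7% from counting. Without wild type replicate 3, the wild type coefficients of variation were 8.52% for Tshz1, 5.31% for Tshz2 and 36.0% for Tshz3 (n = 2).

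Genes with a pattern most like each member were taken by Pearson's r of log2 CPM over the 6 libraries, wild type replicate 3 included, among 12837 other named genes, as a description. Libraries share genotype, depth and composition, and with 6 points many genes reach a high r. Among the 3 most like Tshz2 were Copg2, a coat protein subunit of transport vesicles (r = 0.997), and Zfp422, a zinc finger gene (0.995). The 3 most like Tshz1 were Nelfa, a subunit of the negative elongation factor (0.988), and the splicing genes Sf3a2 (0.978) and Snrnp200 (0.971). Among the 3 most like Tshz3 were the riboflavin transporter gene Slc52a2 (0.978) and Cilp2, a matrix gene (0.977). With the mean of each genotype removed, different genes led. These were Mrps28, Asns and Tlnrd1 for Tshz2, Twnk, Atp4a and Kcnq5 for Tshz1, and Gbx2, Vangl1 and Hivep1 for Tshz3, with r between 0.991 and 1.00.

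Around each member, the 5 nearest genes with any count on either side were examined, 30 in all, of which 23 were tested. Zinc finger genes with a Zfp symbol made up 7 of the 30 (23.3%), against 1.88% of all genes with a count, a feature noticed after the neighbours had been listed. They were Zfp516, Zfp236 and Zfp407 near Tshz1, Zfp64 and Zfp217 near Tshz2, and Zfp507 and Zfp536 near Tshz3. The edgeR test called 0 of the 23 neighbours, where 3 had an unadjusted p under 0.05, and 0.577% of all tested genes were called. Of all 14207 tested genes, 2642 had an unadjusted p under 0.05, and such counts in the gene lists further on stand against that number. DESeq2 called 1, limma-voom 0 and limma-voom with sample quality weights 7. With wild type replicate 3 left out, edgeR made 9 calls, 6 higher and 3 lower. Of all tested genes DESeq2 called 2.80%, limma-voom 0.894%, limma-voom with sample quality weights 36.4% and edgeR without that library 39.2%, and the counts of these tools in the gene lists further on stand against the same shares. The median log2 fold change of the neighbours was -0.01, against 0.00 for all tested genes.

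Zfp217, a transcriptional repressor gene 35.9 kb beyond the end of Tshz2, had 30.1, 35.1 and 34.0 CPM in null replicates 1, 2 and 3, and 41.7, 43.0 and 36.0 CPM in wild type replicates 1, 2 and 3. Its groups did not overlap, and its log2 fold change was -0.29 ± 0.09 (SE, adjusted p = 0.194). Groups did not overlap for 3 tested neighbours lower in null, Zfp217 and Zfp64 among them, and 3 higher, Nfatc2 among them. The same held for 22.0% of all tested genes. On the other side of Tshz2, Zfp64 stood at 20.5 CPM in null and 22.0 CPM in wild type on average (adjusted p = 0.477). The noncoding gene A630075F10Rik, which lies on the opposite strand and overlaps the end of Tshz2, had 23 counts over the 6 libraries. Beyond Zfp64, Atp9a, a lipid flippase gene, had 55.4, 52.9 and 63.3 CPM in null and 29.1, 19.1 and 67.4 CPM in wild type, where replicate 3 was the highest of all 6 libraries (log2 fold change 0.61 ± 0.47, adjusted p = 0.491). Nfatc2, a calcineurin-dependent transcription factor gene, was low, at 0.648 CPM in null and 0.378 CPM in wild type on average (log2 fold change 0.63 ± 0.37, adjusted p = 0.363). Zadh2, an oxidoreductase gene 0.4 kb from Tshz1, stood at 24.5 CPM in null and 25.6 CPM in wild type (log2 fold change -0.06 ± 0.10). Dipk1c, a kinase-like gene further along, had the smallest p of the neighbours, with 2.77, 2.20 and 2.14 CPM in null and 0.698, 0.725 and 1.49 CPM in wild type (log2 fold change 1.42 ± 0.30, adjusted p = 0.102). Near Tshz3, Rpl17-ps9 had a fold change of -0.37 ± 0.10 on the log2 scale (adjusted p = 0.154), but as a ribosomal pseudogene it may share reads with its parent gene. Zfp536, the nearest tested gene on the other side of Tshz3, had 9.63, 9.37 and 10.3 CPM in null and 8.64, 5.54 and 16.9 CPM in wild type, where replicate 3 was the highest.

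**Figure D4:**
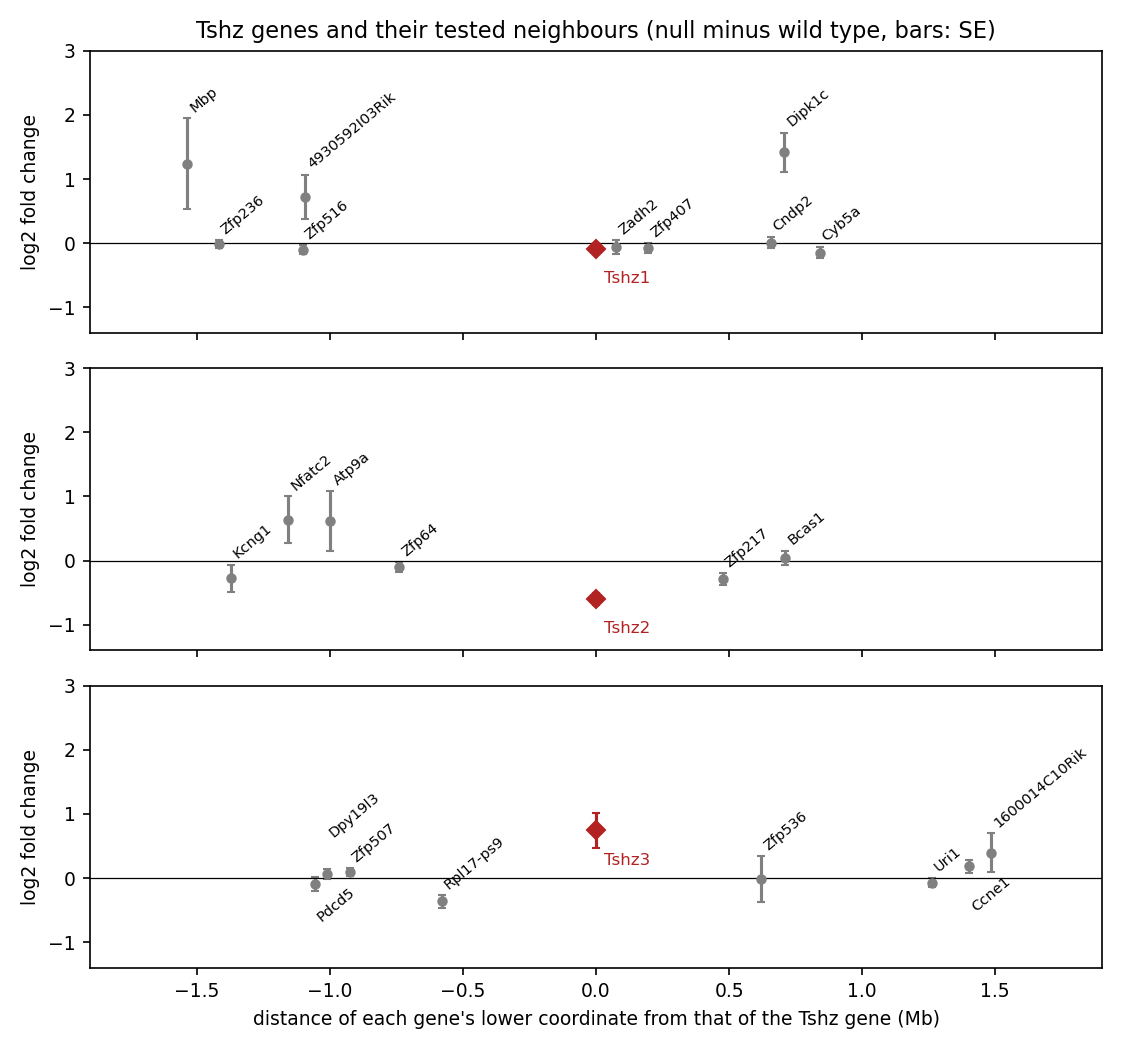
Log2 fold changes (null minus wild type, bars SE) of each Tshz gene (diamond) and its tested neighbours (grey) are plotted against distance in Mb between lower coordinates. The tested neighbours lie between -0.29 (Zfp217) and 0.63 (Nfatc2) near Tshz2, and between -0.37 and 0.40 near Tshz3.

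Genes whose products are known to work with teashirt proteins were expressed without a call. Of 12 such cofactor genes 10 were tested, edgeR called 0, and 0 had an unadjusted p under 0.05. Their median log2 fold change was -0.06, against 0.00 for all tested genes. Ctbp2 and Ctbp1, the corepressor genes, stood at 109.5 ± 3.0 and 193.8 ± 8.0 CPM in null and at 128.8 ± 23.0 and 214.6 ± 24.0 CPM in wild type (SD, n = 3 each). Their log2 fold changes were -0.24 ± 0.12 and -0.15 ± 0.09 (SE). The histone deacetylase genes Hdac2 (-0.11 ± 0.07) and Hdac1 (-0.17 ± 0.11) had adjusted p values of 0.381 and 0.407, and Hdac1 may share reads with near-identical copies. In Ctbp2, Ctbp1, Hdac2 and Hdac1 alike wild type replicate 3 was the lowest wild type library. DESeq2 and limma-voom called 0 of the cofactor genes, limma-voom with quality weights called 6, and edgeR with wild type replicate 3 left out called 1 higher and 5 lower.

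Among zinc finger homeobox relatives, regulators that carry homeodomains, most of them beside zinc fingers, 2 of 12 tested had a positive and 10 a negative log2 fold change, with a median of -0.11. EdgeR called 0, and 4 had an unadjusted p under 0.05, as did 2642 of all 14207 tested genes. Zhx2, a repressor gene, stood at 8.68 ± 0.97 CPM in null and 11.9 ± 0.4 CPM in wild type (log2 fold change -0.46 ± 0.12, adjusted p = 0.139). Homez, which encodes homeodomains and leucine zippers, had a fold change of -0.27 ± 0.10 on the log2 scale (adjusted p = 0.211). Zfhx2 lay the other way, at 12.5 ± 1.8 CPM in null and 8.95 ± 1.05 CPM in wild type (log2 fold change 0.49 ± 0.15, adjusted p = 0.177). The groups did not overlap for 5 members lower in null, Zhx2 and Homez among them, and for 1 higher, Zfhx2. That held for 22.0% of all tested genes, 10.6% lower and 11.4% higher in null. DESeq2 and limma-voom called 0 in this list, limma-voom with quality weights 4, and edgeR with wild type replicate 3 left out called 1 higher and 4 lower.

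The spalt genes, zinc finger regulators that belong to a separate family, had 3 tested members with edgeR calling 0 and 0 at an unadjusted p under 0.05. Sall1 stood at 37.0 ± 1.3 CPM in null and 41.1 ± 2.3 CPM in wild type (log2 fold change -0.15 ± 0.07, adjusted p = 0.284), and the log2 fold changes of Sall3 and Sall2 were -0.13 ± 0.08 and -0.07 ± 0.06. Only limma-voom with quality weights, among the other tools run, called any of them, and it called 1. Without wild type replicate 3 edgeR called 1 as well.

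Genes of the ganglionic eminence and olfactory bulb interneurons, where Tshz1 is known, included several at low levels. Of 27 genes 17 were tested, edgeR called 0, and 7 had an unadjusted p under 0.05, as did 2642 of all 14207 tested genes. Gad1, the GABA-synthesising enzyme, had 1.41, 1.97 and 1.78 CPM in null replicates 1, 2 and 3, and 0.271, 0.554 and 1.09 CPM in wild type replicates 1, 2 and 3 (log2 fold change 1.64 ± 0.40, adjusted p = 0.133). Gsx2, the homeobox gene that specifies the lateral ganglionic eminence, stood at 1.39 ± 0.25 CPM in null and 0.56 ± 0.37 CPM in wild type (1.53 ± 0.40, adjusted p = 0.139). The groups did not overlap for 3 members higher in null, Gad1 and Gsx2 among them, and 2 lower, Pbx3 among them. Among all tested genes 22.0% did not overlap. Ebf1, a striatal transcription factor gene, had 3.52, 5.01 and 3.61 CPM in null and 13.5, 11.3 and 4.17 CPM in wild type, so wild type replicate 3 lay among the null libraries (-1.31 ± 0.38, adjusted p = 0.186). Pbx3, a homeodomain cofactor gene, differed by -0.33 ± 0.10 on the same scale (adjusted p = 0.177). The Dlx genes of this list, Isl1, Nkx2-1 and Lhx6 were among the 10 members too low to be tested. DESeq2 called 1 member lower, limma-voom 0, and its weighted form 9, and edgeR with wild type replicate 3 left out called 5 higher and 3 lower.

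Cortical projection neuron genes, where Tshz2 and Tshz3 are known, had 14 tested members of 22, with edgeR calling 0. An unadjusted p under 0.05 was found for 4 of them, and for 2642 of all 14207 tested genes. Tle4, a corepressor gene of deep cortical layers, stood at 145.2 ± 5.7 CPM in null and 189.8 ± 33.5 CPM in wild type (log2 fold change -0.39 ± 0.12, adjusted p = 0.189), with wild type replicate 3 at 151.3 CPM beside null replicate 3 at 151.2. Pou3f2, a progenitor and upper-layer regulator, stood at 52.4 ± 2.1 CPM in null and 44.4 ± 1.3 CPM in wild type (0.24 ± 0.07, adjusted p = 0.167). Ldb2, which encodes a LIM-domain binding protein, differed by 0.94 ± 0.36 on the log2 scale (adjusted p = 0.232). It had 3.9, 4.4 and 2.9 CPM in null and 1.4, 1.45 and 3.57 CPM in wild type, so wild type replicate 3 lay among the null libraries. Tbr1, Fezf2, Eomes and Neurog2 were among the 8 that were not tested. DESeq2 and limma-voom called 0, limma-voom with quality weights 7, and edgeR with wild type replicate 3 left out called 4 higher and 4 lower.

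Wnt pathway genes, listed for the tie between teashirt and Wingless in Drosophila, had 21 tested members of 26, with edgeR calling 0. An unadjusted p under 0.05 was found for 6 of them, and for 2642 of all 14207 tested genes. Tcf7l2, a Wnt-responsive transcription factor gene, had 12.8, 12.2 and 11.8 CPM in null and 19.0, 15.9 and 17.7 CPM in wild type (log2 fold change -0.52 ± 0.10, adjusted p = 0.0877). Tcf7l1, a related repressor gene, stood at 0.79 ± 0.18 CPM in null and 1.74 ± 0.41 CPM in wild type (-1.19 ± 0.28, adjusted p = 0.12). The Groucho corepressor genes Tle3 and Tle2 lay the other way, with log2 fold changes of 0.42 ± 0.11 and 0.76 ± 0.25 (adjusted p = 0.15 and 0.209). Groups did not overlap for 4 tested members lower in null, Tcf7l2 and Tcf7l1 among them. They did not overlap either for 2 higher in null, Tle3 among them, and for 22.0% of all tested genes. The median log2 fold change of the list was -0.02. DESeq2 called 1 lower, limma-voom 0 and limma-voom with quality weights 10, and edgeR with wild type replicate 3 left out called 5 higher and 5 lower.

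**Figure D5:**
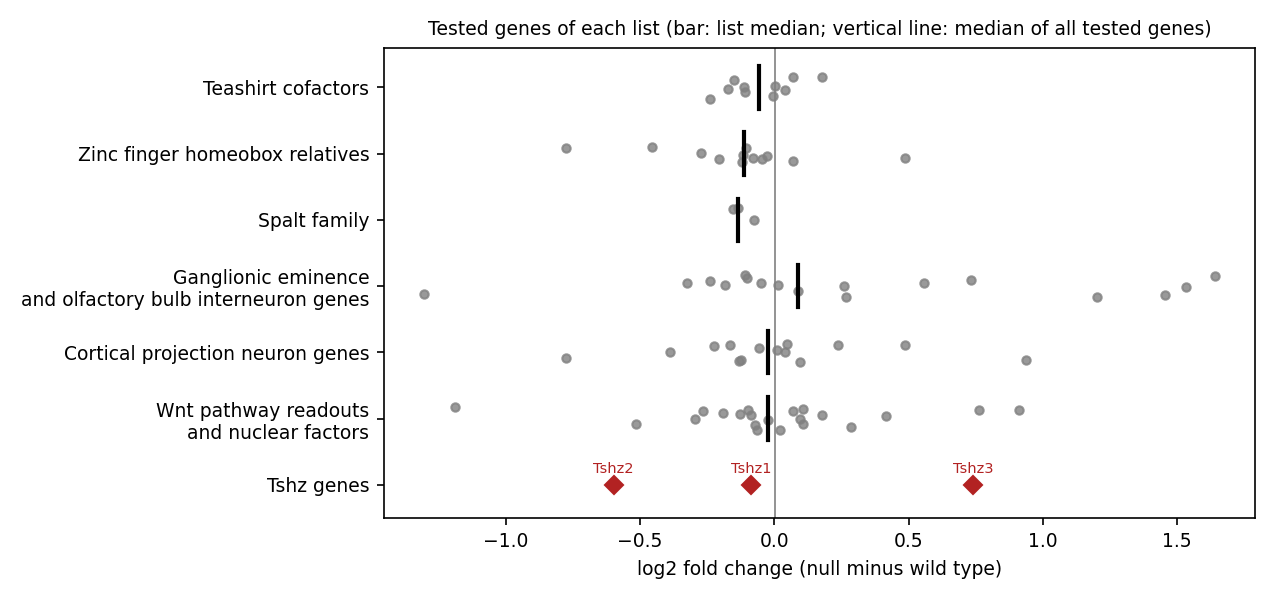
Each grey point is the log2 fold change (null minus wild type) of a tested gene of the named list, black bars are list medians, diamonds are the Tshz genes, and the vertical line is the median of all tested genes (0.00). List medians run from -0.13 for the spalt genes to 0.09 for the ganglionic eminence genes.

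Markers of neural stem cells were abundant in both groups, and their summed level ran from 7820 to 8040 CPM in null and from 7850 to 8230 CPM in wild type. Vim, Fabp7 and Nes were the most abundant of the 19 genes. Summed neuron markers ran from 1490 to 1530 CPM in null and from 1590 to 1620 CPM in wild type, lower in null without overlap. Most of that difference came from Map2, a microtubule protein gene and the most abundant of these markers, which stood at 981 ± 16 CPM in null and 1084 ± 23 CPM in wild type (SD, n = 3 each). Gap43, a growth cone gene, stood at 369.8 ± 9.8 CPM in null and 367.6 ± 17.5 CPM in wild type. Of the 16 neuron markers Slc17a6 was at 0 in every library. The edgeR test called 1 of 13 tested, higher in null and so opposite to the sum. Of all tested genes it called 0.577%, 0.507% higher in null. The part of neuron markers in the values of the Tshz genes was not tested. Summed oligodendrocyte lineage markers ran from 1030 to 1120 CPM in null and from 764 to 1210 CPM in wild type, where replicate 3 was the highest. Pdgfra, the receptor of oligodendrocyte precursors, had 112.6, 128.2 and 137.5 CPM in null and 17.1, 18.3 and 167.4 CPM in wild type replicates 1, 2 and 3. Summed astrocyte markers ran from 689 to 724 CPM in null and from 707 to 846 CPM in wild type. Microglia markers summed to 3.95 to 4.54 CPM in null and 3.02 to 5.26 CPM in wild type, with Tmem119, Itgam, C1qa and C1qb at 0 in all libraries. Endothelial markers summed to at most 4.46 CPM in null and 4.90 CPM in wild type, with Cdh5 at 0, and Prrx1 made up most of the fibroblast and pericyte sum of 47.5 to 66.2 CPM in null and 48.6 to 53.3 CPM in wild type. In bulk cultures, fewer cells that express a gene and less RNA per cell cannot be told apart.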

How the data were processed

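RNA was sequenced in 6 libraries, 3 null and 3 wild type. Per the labels' protocols, libraries were made from 1 µg total RNA with a TruSeq RNA v2 kit and sequenced as single reads. The authors deposited raw counts per Entrez gene with a gene length. Per the submitters' processing notes, CASAVA 1.8.2, featureCounts, edgeR 3.8.2, limma 3.22.0 and build mm10 were used. Neither an aligner nor an annotation is given in the sources used here.

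Symbols and positions came from RefSeq GRCm38.p6, which matched 25275 of 27179 records (93.0%). Counts were fitted with edgeR 4.0.16 in R 4.3.3 (filterByExpr, TMM, robust quasi-likelihood F-test, two-sided, genotype as the only term), with Benjamini-Hochberg adjustment over 14207 genes at 0.05. SE came from the fold change and F. Alternatives used DESeq2 1.42.0, limma 3.58.1 (voom), other scalings and filters, a replicate block, the name range as a term, and leaving out each library.

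Members and gene lists were chosen with earlier results of these data known. Named genes were Smchd1, the 4 with the smallest p of each list and of the neighbours, the most abundant markers of each cell type and the 3 most like each Tshz gene, and some of these are not reported here. Zfp64, Atp9a, Nfatc2, Zadh2, Zfp536, Bcas1, Tle1, A630075F10Rik and Gm36722 were chosen after their values were seen. So were the other neighbours with a Zfp symbol and the genes named as untested or at 0. The labels give no pairing, so the replicate block was an alternative only.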

Additional observations from a re-analysis of the deposited data

How the results depend on the processing

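The log2 fold change of Tshz2 was negative and that of Tshz3 positive under all 16 alternatives, and that of Tshz1 was negative in all 16. Tshz2 moved by more than the spread between replicates with the name range as a term (-0.43) and among the libraries named 11 to 14 (-0.43), and Tshz1 and Tshz3 did so under none of the 16. Leaving out 1 library gave -0.13 to -0.04 for Tshz1, -0.67 to -0.53 for Tshz2 and 0.54 to 1.00 for Tshz3.

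The edgeR test called 82 genes, DESeq2 398, limma-voom 127, limma-voom with quality weights 5168, no filter 222, the name-range term 186 and the libraries named 11 to 14 376. With the replicate block it called 54, of which 48 were among the 82. Same-numbered libraries did not deviate together from their group means, with correlations of -0.01, 0.03 and -0.04. Leaving out 1 library gave 30 to 5676 calls, the highest without wild type replicate 3. The split of the 82 was 72 higher and 10 lower, against 177 and 221 with DESeq2.

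Quality weights called 6 cofactor, 4 homeobox, 1 spalt, 9 ganglionic eminence, 7 cortical, 10 Wnt and 7 neighbour genes. The name-range term called 2 cofactor, 1 homeobox and 1 ganglionic eminence genes, beside 186 of all 14207 tested genes. The libraries named 11 to 14 hold 1 wild type library, so their calls in the lists are not counted here. DESeq2 and no filter each called 1 ganglionic eminence, 1 Wnt and 1 neighbour gene. Of all tested genes DESeq2 called 398 of 14207, and the test with no filter called 222 of 21095. Leaving out 1 library gave 0 to 6 cofactor, 0 to 5 homeobox, 0 to 1 spalt, 0 to 8 ganglionic eminence, 0 to 8 cortical, 0 to 10 Wnt and 0 to 9 neighbour genes, the highest without wild type replicate 3.

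Without division by length, the share of the family sum was 69.7% in null and 64.7% in wild type for Tshz1, and 24.6% in null and 32.4% in wild type for Tshz2. Tshz3 counts of 22 to 93 per library limit its precision. The cause of these shifts was not tested.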
